A study of Mus musculus with 11 samples.

Results

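The genes of retinoid metabolism described here are 10 of the 11366 genes in the expression table of mouse small-intestinal epithelium. They were taken by symbol (Rdh7, Rdh16f2, Adh1, Aldh1a1, Rbp2, Lrat, Bco1, Isx, Dhrs3 and Dgat1), and all 10 were found and tested. The set was chosen with earlier results of these data known, so its shares set beside those of all genes are descriptions. RNA-seq was done on 11 libraries from wild-type mice. Control mice (n = 3, labelled 2, 4 and 5) ate standard chow, NFF mice (n = 4) ate a diet low in fermentable fiber, and SFB mice (n = 4) ate standard chow and were colonized with SFB, read here as segmented filamentous bacteria, commensals that attach to the ileal epithelium. NFF and Control mice had no treatment listed, and the age of the mice is not given in the sources used here. In all groups the cells were sorted as live, EpCAM-positive and negative for CD45, CD31 and CD44, which leaves out crypt cells bearing CD44. Whether each library came from its own animal is not stated in the labels, and p-values therefore cover the spread among libraries, which may be technical.

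Vitamin A reaches the enterocyte as retinol, from dietary esters, or as carotenoids that Bco1 cleaves to retinal. Inside the cell Rbp2 binds retinol and retinal, Lrat and Dgat1 esterify retinol for export in chylomicrons, dehydrogenases such as Rdh7 and Adh1 oxidize retinol to retinal, Dhrs3 reduces retinal back, and Aldh1a1 oxidizes retinal irreversibly to retinoic acid, the ligand of nuclear receptors. The homeodomain repressor Isx, itself induced by retinoic acid, is known to lower Bco1 expression, which closes a feedback loop on vitamin A production.

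The oxidoreductases of the set were called as lower in SFB than in NFF, while the genes of carotenoid cleavage, retinol binding and esterification were not called. The estimates of these uncalled genes were also below 0, among them Bco1 (-0.74) and Rbp2 (-0.63), except for Isx (0.41). Whether the oxidoreductases differ from the others was not tested. In SFB against NFF, a comparison in which both diet and colonization differ, Rdh7, Rdh16f2, Adh1, Dhrs3 and Aldh1a1 fell, by 1.58-fold (Dhrs3) to 12.99-fold (Rdh16f2) in mean RPKM. That is 5 of the 10 genes, 0 higher and 5 lower, where limma with Benjamini-Hochberg adjustment called 7.34% of all 10482 genes tested, 3.14% as higher and 4.20% as lower. Of the 5, Rdh16f2 was under 1 RPKM in every SFB library and passed the filter on low values through the other groups. Its ratio rests on those low values. An unadjusted p under 0.05 was found for 7 of the 10 genes, against 25.7% of all tested. The median log2 difference of all 10 genes was -0.69, against 0.02 over all genes tested. In 6 of the 10 all SFB libraries lay below all NFF libraries, against 9.91% of all tested genes, and in 1, Isx, they lay above, against 10.1%.

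Against Control no gene of the set was called. In SFB against Control limma called 0 of 10 (0.200% of all genes, 0.0763% as lower), although 6 had an unadjusted p under 0.05 (12.1% of all genes) and 5 had SFB libraries that did not overlap with Control (9.71% of all genes), all 5 lower (6.05%) and 0 higher (3.66%). In NFF against Control it called 0 of 10, as it did of all genes (0%), with 2 of the 10 at an unadjusted p under 0.05 (4.82%) and 1, Dhrs3, with groups that did not overlap (9.77%), where NFF lay above Control (5.35%, with 4.42% of all genes below). Over the 10 genes 9 lay below 0 in SFB against Control, with a median of -0.78, and 6 lay above 0 in NFF against Control, with a median of 0.13. The medians over all tested genes were 0.01 and -0.01. The 3 comparisons share libraries in pairs and so are not independent of each other.

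**Figure D1:**
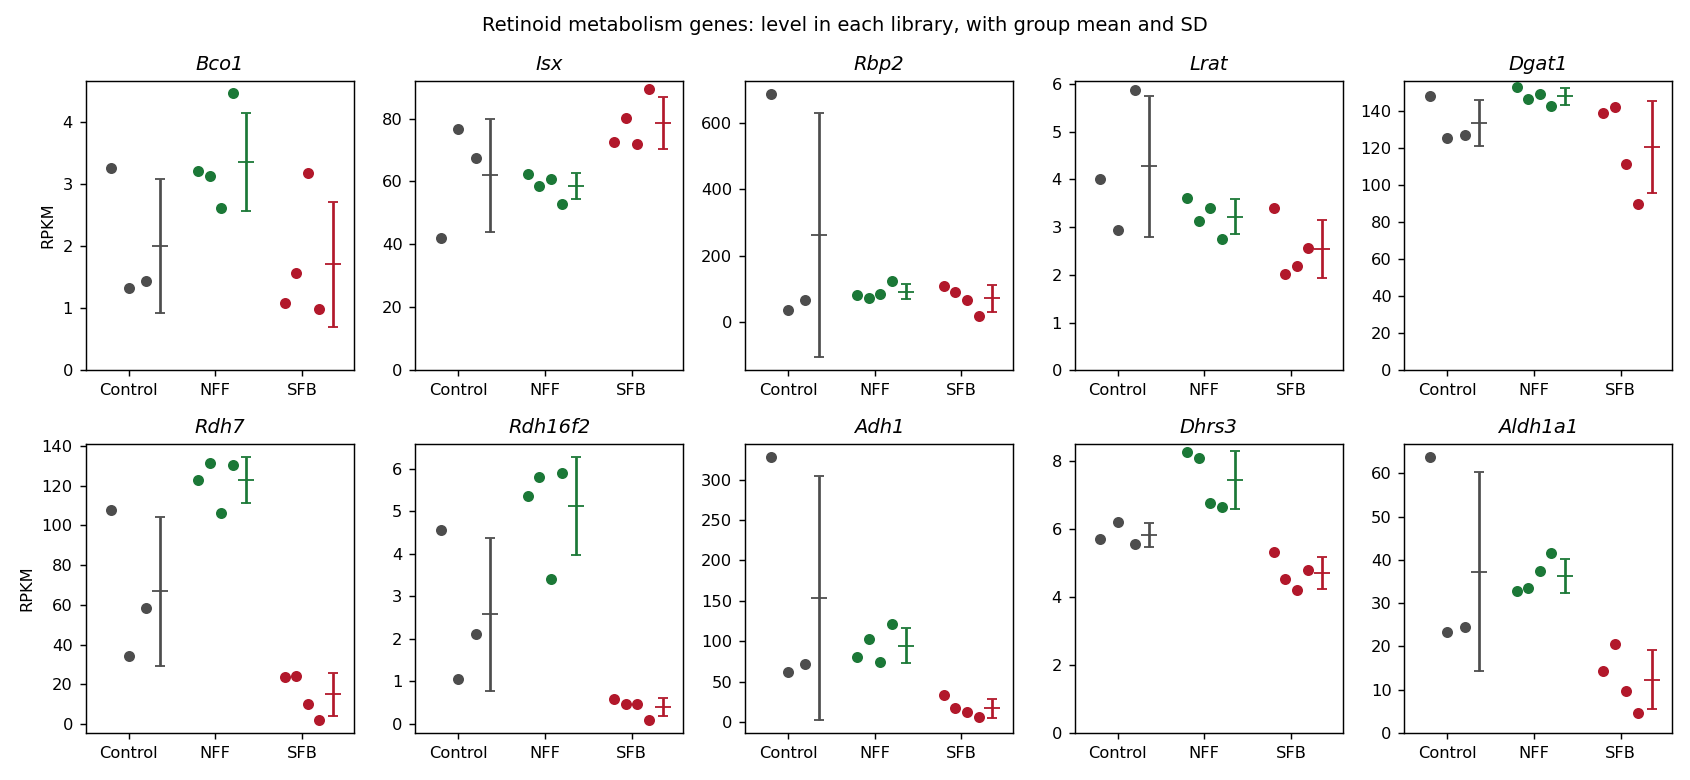
RPKM (y axis, linear) of each of the 10 genes in every library (points), by group, with the group mean and SD beside the points (n = 3, 4 and 4). SFB libraries of Rdh7, Rdh16f2, Adh1, Aldh1a1 and Dhrs3 lie below every library of the other groups. The library Control 2 carries most of the Control spread of Rbp2 and Adh1.

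**Figure D2:**
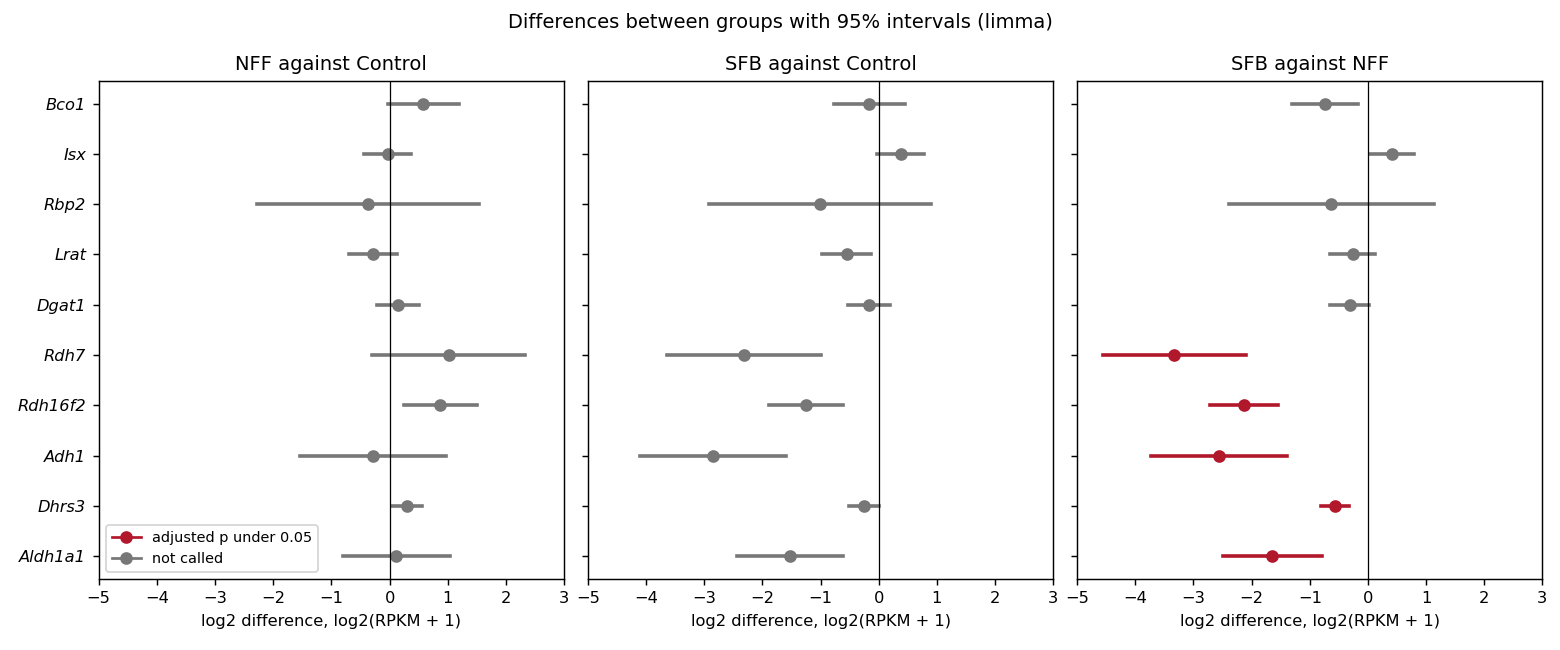
Log2 difference on the log2(RPKM + 1) scale (x axis) for each gene with its 95% interval from limma, in the 3 comparisons. The 5 genes called in SFB against NFF are drawn in red, and no gene is called in the other panels.

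Marker genes set the libraries in context. All 8 enterocyte markers looked for (among them Epcam, Vil1 and Alpi) were among the genes analysed. Of 8 fibroblast and endothelial markers 0, and of 10 leukocyte markers 3, were among the genes analysed here. Control 2 stood apart, with a summed level of 2835 RPKM for 7 proximal small intestine genes where Control 4 and 5 had 211 and 333, and 550 for 8 distal genes where those 2 had 4176 and 4604. SFB 4 had the lowest sum for the 8 enterocyte genes, 2148 against 3332 to 7523 in the other libraries, and the highest for 8 genes of dividing cells.

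Several marker lists moved with the comparison of SFB and NFF. The sums for dividing cells were 54.4 to 212 RPKM in SFB and 28.4 to 44.3 in NFF, without overlap, and 38.7 to 109 in Control. All 8 of these genes had higher estimates in SFB and 2 rose, Ccnb2 (log2 difference 1.66, limma adjusted p = 0.028) and Birc5 (1.58, limma adjusted p = 0.022). The sums of 9 Paneth, goblet, tuft and enteroendocrine markers were 3147 to 6995 in SFB and 6173 to 11097 in NFF, which overlap. All 9 had lower estimates in SFB and 4 fell, the tuft cell genes Dclk1 (-1.72) and Trpm5 (-2.67) and the enteroendocrine genes Chga (-1.87) and Chgb (-2.09), with limma adjusted p of 0.0022, 0.0022, 0.045 and 0.037. Of the enterocyte markers 1 of 8 fell, Sis (-1.27, limma adjusted p = 0.031), and of the distal markers 1 of 8, Cubn (-1.93, limma adjusted p = 0.037). The estimates of all enterocyte markers but Krt20 (0.19) were lower in SFB, among them Apoa4 (-1.51) and Alpi (-0.93), neither called. So were those of all distal markers but Slc51b (0.09), among them Fgf15 (-2.34), not called.

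The proximal sums were 78.7 to 270 in SFB and 310 to 664 in NFF, without overlap, but they were carried by Fabp1 (log2 difference -1.94) and Lct (-2.10). The other 5 of the 7 proximal genes had estimates above 0, from 0.06 to 0.97, and 0 of the 7 were called. The leukocyte genes were Ptprc, Itgam and Lyz2, the last near-identical to the Paneth gene Lyz1. Their sums were 26.8 to 53.1 RPKM in Control, 22.3 to 33.3 in NFF and 7.46 to 26.1 in SFB. Lyz2 made up most of each sum except in SFB 2 (Lyz2 1.34, Itgam 5.47 RPKM) and SFB 4 (Lyz2 7.25, Itgam 12.7 RPKM). Itgam went the other way from the sums and rose. It lay between 1.12 and 3.48 RPKM in NFF and between 5.47 and 12.7 in SFB (log2 difference 1.41, limma adjusted p = 0.019). The part of these markers in the differences described below was not tested. In these bulk libraries fewer cells of a type and less RNA per cell cannot be told apart.

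Rdh7 encodes a short-chain dehydrogenase that oxidizes retinols and lies on chromosome 10 (127884028 to 127888817, minus strand, GRCm38, GENCODE M21). Its RPKM was 108, 34.2 and 58.6 in Control 2, 4 and 5, it was 123, 132, 106 and 131 in NFF 1 to 4, and it was 23.7, 24.4, 10.2 and 2.25 in SFB 1 to 4. The SFB libraries were all low and overlapped with neither other group, and NFF was high with only Control 2 reaching its range. SFB averaged 15.1 ± 10.8 (SD, n = 4) and NFF 123 ± 11.7 (SD, n = 4), an 8.13-fold difference and a log2 difference of -3.33 ± 0.56 (SE; limma adjusted p = 0.0060). The call held without SFB 4, the lowest library, at -2.69 (limma adjusted p = 0.0025). Control stood between them at 66.8 ± 37.4 (SD, n = 3), with log2 differences of -2.31 for SFB (95% interval -3.64 to -0.99; limma adjusted p = 0.147) and 1.01 for NFF (-0.31 to 2.34; limma adjusted p = 0.896).

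Rdh16f2, a close paralog, lies 6.71 kb from Rdh7 (chromosome 10, 127866474 to 127877317, plus strand) and was far less abundant. Its RPKM was 4.56, 1.06 and 2.10 in Control 2, 4 and 5, then 5.36, 5.81, 3.41 and 5.89 in NFF 1 to 4, and 0.569, 0.465, 0.453 and 0.089 in SFB 1 to 4. Every SFB library was under 1 RPKM and below every Control and NFF library, so this gene passed the filter on low values through the other groups. SFB averaged 0.394 ± 0.210 (SD, n = 4) and NFF 5.12 ± 1.16 (SD, n = 4), a 12.99-fold difference. On the log2(RPKM + 1) scale, which understates changes near 1 RPKM, the difference was -2.12 ± 0.27 (SE; limma adjusted p = 0.0017), and it was -3.52 with a pseudocount of 0.1. Against Control (2.58 ± 1.80, SD, n = 3) SFB differed by -1.25 (95% interval -1.88 to -0.62; limma adjusted p = 0.099), which was called without Control 4 (-1.59, limma adjusted p = 0.045). NFF differed from Control by 0.87 (95% interval starting at 0.24; limma adjusted p = 0.785).

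The paralogs share sequence, so their reads could partly be split or mixed by the authors' counting. The longest protein-coding GENCODE transcripts of Rdh7 and Rdh16f2 were 84.1% identical over 1011 aligned bases, with a longest identical run of 69 bases. Of all windows of 50 bases in the Rdh7 transcript 2.03% also occurred in Rdh16f2, a window length chosen here since the read length is not given in the sources used here. Shares of Rdh7 windows found in other paralogs were 9.82% for Rdh1, 6.08% for Rdh19, 2.5% for Rdh9 and 1.5% for Rdh16. Rdh1 and Rdh19 were not analysed here, and the transcript of Rdh19 is 92.4% identical to that of Rdh16f2. Over the 11 libraries Rdh7 and Rdh16f2 had a correlation of 0.93. That is not particular to this pair, since the values of Rdh7 with the other members ran from -0.79 (Isx) to 0.95 (Aldh1a1). Whether stray Rdh7 reads add to the low Rdh16f2 values, and so whether the 2 falls are separate, was not tested. Rdh9 and Rdh16, from the same cluster, were measured and not called, and SFB 4 was the lowest library for both. Rdh9 stood at 14.3 ± 1.86 RPKM in NFF and 11.3 ± 5.99 in SFB (SD, n = 4 each), a log2 difference of -0.50 (95% interval -1.30 to 0.31), although its transcript is 85.3% identical to that of Rdh7 and 91.0% to that of Rdh16f2. Rdh16 stood at 2.24 ± 0.539 and 2.69 ± 1.53 RPKM (SD, n = 4 each), a difference of 0.08 (-0.58 to 0.74). Whether these differences differ from that of Rdh7 was not tested.

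**Figure D3:**
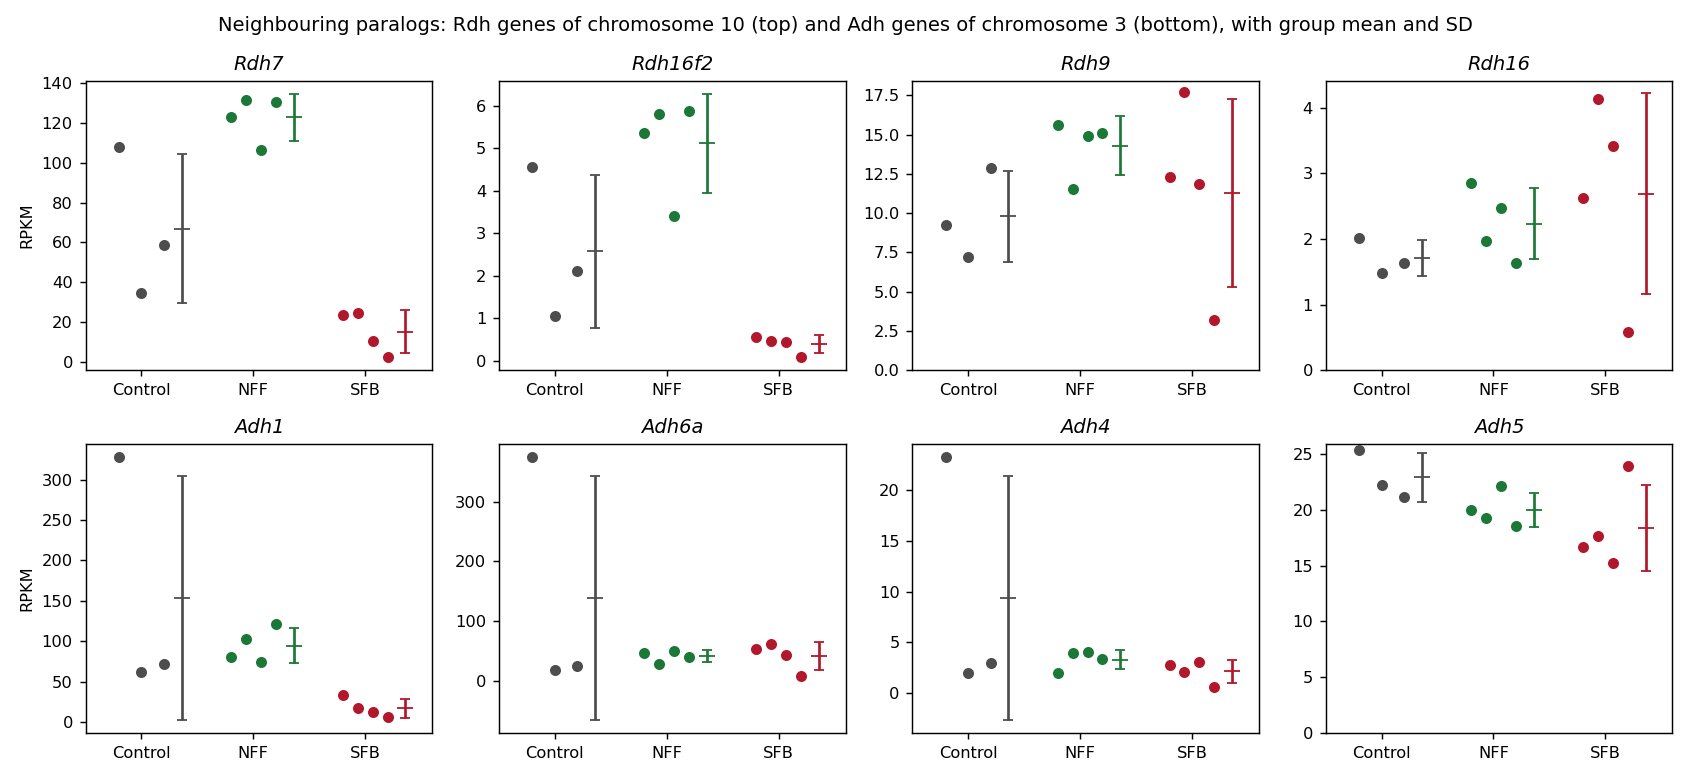
RPKM (y axes, linear) per library by group for 4 neighbouring Rdh genes of chromosome 10 and 4 neighbouring Adh genes of chromosome 3, with mean and SD (n = 3, 4 and 4). Rdh7, Rdh16f2 and Adh1 are low in all SFB libraries, whereas Rdh9, Rdh16, Adh6a, Adh4 and Adh5 overlap between SFB and NFF, and Control 2 is far above the other libraries for Adh1, Adh6a and Adh4, where the SD bar of Control spans most of the axis.

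The upstream sequences of 4 of the genes hold the letters AGGTCA, a single element of the paired sites that retinoic acid receptors and their partner RXR are known to bind. A single element is not such a site. The sequences are shown because products of the pathway act through those receptors. Promoter windows of 250 bases before the annotated start were read from RefSeq (GRCm38.p6) for 9 of the 10 genes, 13 windows in all, and searched on both strands. AGGTCA occurred in 4 of 13 windows, against 14.0% of all 32851 windows. The windows are Rdh7 (chr10:127889248-127889497, minus strand), Rdh16f2 (chr10:127866226-127866473, plus strand), Rbp2 (chr9:98490287-98490536, plus strand) and Bco1 (chr8:117095615-117095853, plus strand), printed 5′ to 3′ with AGGTCA or its reverse complement in capitals. The windows of Rdh16f2 and Bco1 were shortened to end before the GENCODE exon, and that of Rdh7 ends at a RefSeq start upstream of the GENCODE gene. The window of Rbp2 ends at a RefSeq start within the GENCODE gene (98486115 to 98509781) and so lies inside that gene.
Rdh7: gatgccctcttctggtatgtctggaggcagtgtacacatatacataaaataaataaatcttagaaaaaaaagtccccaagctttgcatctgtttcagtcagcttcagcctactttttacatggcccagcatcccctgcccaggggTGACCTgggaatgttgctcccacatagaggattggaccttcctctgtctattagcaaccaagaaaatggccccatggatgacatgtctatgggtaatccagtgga
Rdh16f2: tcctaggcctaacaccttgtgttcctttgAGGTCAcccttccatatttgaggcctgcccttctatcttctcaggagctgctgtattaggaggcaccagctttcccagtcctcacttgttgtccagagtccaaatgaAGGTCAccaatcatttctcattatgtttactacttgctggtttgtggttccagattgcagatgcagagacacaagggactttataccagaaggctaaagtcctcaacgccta
Rbp2: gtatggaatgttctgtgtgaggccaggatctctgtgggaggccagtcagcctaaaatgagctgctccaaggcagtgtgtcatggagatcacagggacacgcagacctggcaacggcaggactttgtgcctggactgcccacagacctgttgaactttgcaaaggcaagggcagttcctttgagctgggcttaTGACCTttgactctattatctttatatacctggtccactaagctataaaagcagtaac
Bco1: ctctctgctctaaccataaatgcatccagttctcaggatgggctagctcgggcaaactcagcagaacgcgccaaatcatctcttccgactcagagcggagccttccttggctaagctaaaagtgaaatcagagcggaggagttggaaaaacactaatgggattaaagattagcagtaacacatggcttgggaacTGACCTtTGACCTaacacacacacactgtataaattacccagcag
The Rdh7 element begins 105 bases before the upstream one of 2 RefSeq starts, that of Rbp2 begins 58 bases before its start, and those of Rdh16f2 begin 221 and 114 bases before it. In Bco1 the elements begin 56 and 49 bases before the start and form a direct repeat with a spacer of 1 base, an arrangement (AGGTCA or AGTTCA at each end, either strand, overlapping the single elements) found in 22 of 32851 windows. Repeats with spacers of 2 or 5 bases were in 0 of the 13 windows. These are matches of letters and say nothing of whether a factor was bound.

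Adh1, the class I alcohol dehydrogenase, which oxidizes ethanol as well as retinol, lies on chromosome 3 (138260991 to 138290698). Its RPKM was 328, 61.8 and 72.1 in Control 2, 4 and 5, then 80.2, 103, 74.4 and 121 in NFF 1 to 4, and 33.4, 17.9, 12.7 and 6.16 in SFB 1 to 4. All SFB libraries were below all others, and Control 2 was the highest of the 11. The means were 94.7 ± 21.6 in NFF and 17.6 ± 11.6 in SFB (SD, n = 4 each), a 5.40-fold difference and -2.56 ± 0.53 on the log2 scale (SE; limma adjusted p = 0.017). The call was lost without NFF 2 (-2.51, limma adjusted p = 0.057) or NFF 4 (-2.44, limma adjusted p = 0.057). SFB differed from Control by -2.85 (95% interval -4.11 to -1.59; limma adjusted p = 0.069), and by -2.09 without Control 2 (limma adjusted p = 0.160), whereas the call was made without SFB 1 (-3.22, limma adjusted p = 0.037). NFF differed from Control by -0.29 (-1.55 to 0.97), a direction that turned to 0.47 without Control 2.

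The Adh neighbours of chromosome 3 did not pass the test. Adh6a had an RPKM of 375 in Control 2, of 17.5 in Control 4 and of 24.2 in Control 5, against 41.04 ± 10.01 in NFF and 41.3 ± 23.4 in SFB (SD, n = 4 each). Adh4 stood at 3.30 ± 0.957 in NFF and 2.13 ± 1.13 in SFB, and Adh5, the widely expressed class III enzyme, at 20.0 ± 1.54 and 18.4 ± 3.86 (SD, n = 4 each). The log2 differences between SFB and NFF were -0.27 for Adh6a (95% interval -2.12 to 1.59), -0.52 for Adh4 (-1.73 to 0.69) and -0.13 for Adh5 (-0.43 to 0.17).

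Aldh1a1, the retinal dehydrogenase on chromosome 19 (20492715 to 20643465), was also low in SFB. Its RPKM was 63.9, 23.4 and 24.5 in Control 2, 4 and 5, then 32.9, 33.6, 37.3 and 41.5 in NFF 1 to 4, and 14.3, 20.6, 9.74 and 4.65 in SFB 1 to 4. No SFB library reached the lowest Control or NFF library. The fall from 36.3 ± 3.95 in NFF to 12.3 ± 6.78 in SFB (SD, n = 4 each) was 2.95-fold, and -1.64 ± 0.39 on the log2 scale (SE; limma adjusted p = 0.028). It was the least stable of the 5 calls, lost without any single NFF library or without SFB 3 (-1.69 to -1.58, limma adjusted p = 0.053 to 0.085). SFB differed from Control by -1.53 (95% interval -2.44 to -0.61; limma adjusted p = 0.166), or by -1.07 without Control 2, and was called without Control 2, SFB 2 and SFB 4 together (-0.96, limma adjusted p = 0.046). NFF and Control differed by 0.12 (-0.80 to 1.03).

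Aldh1a7, a paralog on the same chromosome, was the other measured gene of those listed here under retinal oxidation. Whether its enzyme oxidizes retinal was not tested. It averaged 6.81 ± 3.51 RPKM in SFB, 16.2 ± 0.712 in NFF (SD, n = 4 each) and 14.9 ± 2.84 in Control (SD, n = 3). It fell in SFB against NFF, with a log2 difference of -1.30 (95% interval -2.04 to -0.57; limma adjusted p = 0.039), and differed by -1.18 from Control (limma adjusted p = 0.206). The longest transcripts of Aldh1a1 and Aldh1a7 were 89.5% identical over 2017 aligned bases, and 6.54% of the 50-base windows of Aldh1a1 occurred in Aldh1a7, which the counting of the authors may have split unevenly. Aldh1a2 and Aldh1a3, retinal dehydrogenases like Aldh1a1, were not analysed here.

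Dhrs3 reduces retinal to retinol and so acts against the dehydrogenases above. Its gene is on chromosome 4 (144892827 to 144928209). Its RPKM was 5.69, 6.21 and 5.55 in Control 2, 4 and 5, then 8.26, 8.08, 6.74 and 6.63 in NFF 1 to 4, and 5.32, 4.53, 4.20 and 4.78 in SFB 1 to 4. The 3 groups did not overlap, with NFF highest and SFB lowest, and the spread within groups was small. SFB stood at 4.71 ± 0.472 and NFF at 7.43 ± 0.863 (SD, n = 4 each), a 1.58-fold difference and -0.56 ± 0.11 on the log2 scale (SE; limma adjusted p = 0.013). That call was lost without NFF 2 (-0.52, limma adjusted p = 0.056). Against Control (5.82 ± 0.348, SD, n = 3) the differences were 0.30 for NFF (95% interval 0.04 to 0.56; limma adjusted p = 0.896) and -0.26 for SFB (-0.52 to 0.00; limma adjusted p = 0.414).

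Bco1, the oxygenase that cleaves beta-carotene, and its repressor Isx, both on chromosome 8 (117095854 to 117133720 and 74873173 to 74893506), differed in opposite directions between SFB and NFF, neither of them called. Bco1 RPKM was 3.26, 1.32 and 1.44 in Control 2, 4 and 5, then 3.21, 3.13, 2.62 and 4.47 in NFF 1 to 4, and 1.09, 1.57, 3.18 and 0.985 in SFB 1 to 4. SFB 3 alone of the SFB libraries lay in the NFF range, and Control 2 alone of the Control libraries. Bco1 differed by -0.74 in SFB against NFF (95% interval -1.30 to -0.17; limma adjusted p = 0.103), or by -0.97 and called without SFB 3 (limma adjusted p = 0.040), by 0.58 in NFF against Control (-0.03 to 1.19) and by -0.16 in SFB against Control (-0.77 to 0.45), the last turning to 0.12 without Control 2.

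Isx was much more abundant, with RPKM of 41.9, 76.5 and 67.4 in Control 2, 4 and 5, of 62.4, 58.6, 60.8 and 52.9 in NFF 1 to 4, and of 72.7, 80.0, 71.8 and 89.5 in SFB 1 to 4. It was the gene of the set with higher values in SFB, where every library lay above every NFF library. The means were 78.5 ± 8.24 in SFB and 58.7 ± 4.13 in NFF (SD, n = 4 each), a log2 difference of 0.41 (95% interval 0.04 to 0.78; limma adjusted p = 0.157). That difference was called without Control 2 (limma adjusted p = 0.048). Control 2 is in neither of these groups, so leaving it out alters the shared variance and the genes tested but not the estimate. SFB differed from Control by 0.38 (-0.03 to 0.78), or by 0.12 without Control 2, and NFF from Control by -0.04 (-0.44 to 0.37). Isx was lowest in Control 2, the library in which Rbp2, Adh1 and Aldh1a1 were highest, and highest in SFB 4, the library in which those 3 genes and Rdh7 were lowest. Scarb1, the carotenoid receptor that Isx is also known to repress, was not analysed here. Bco2, the eccentric carotenoid oxygenase, averaged 25.8 ± 9.94 RPKM in SFB, 32.9 ± 6.82 in NFF (SD, n = 4 each) and 38.7 ± 24.6 in Control (SD, n = 3) and was not called in any comparison.

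**Figure D4:**
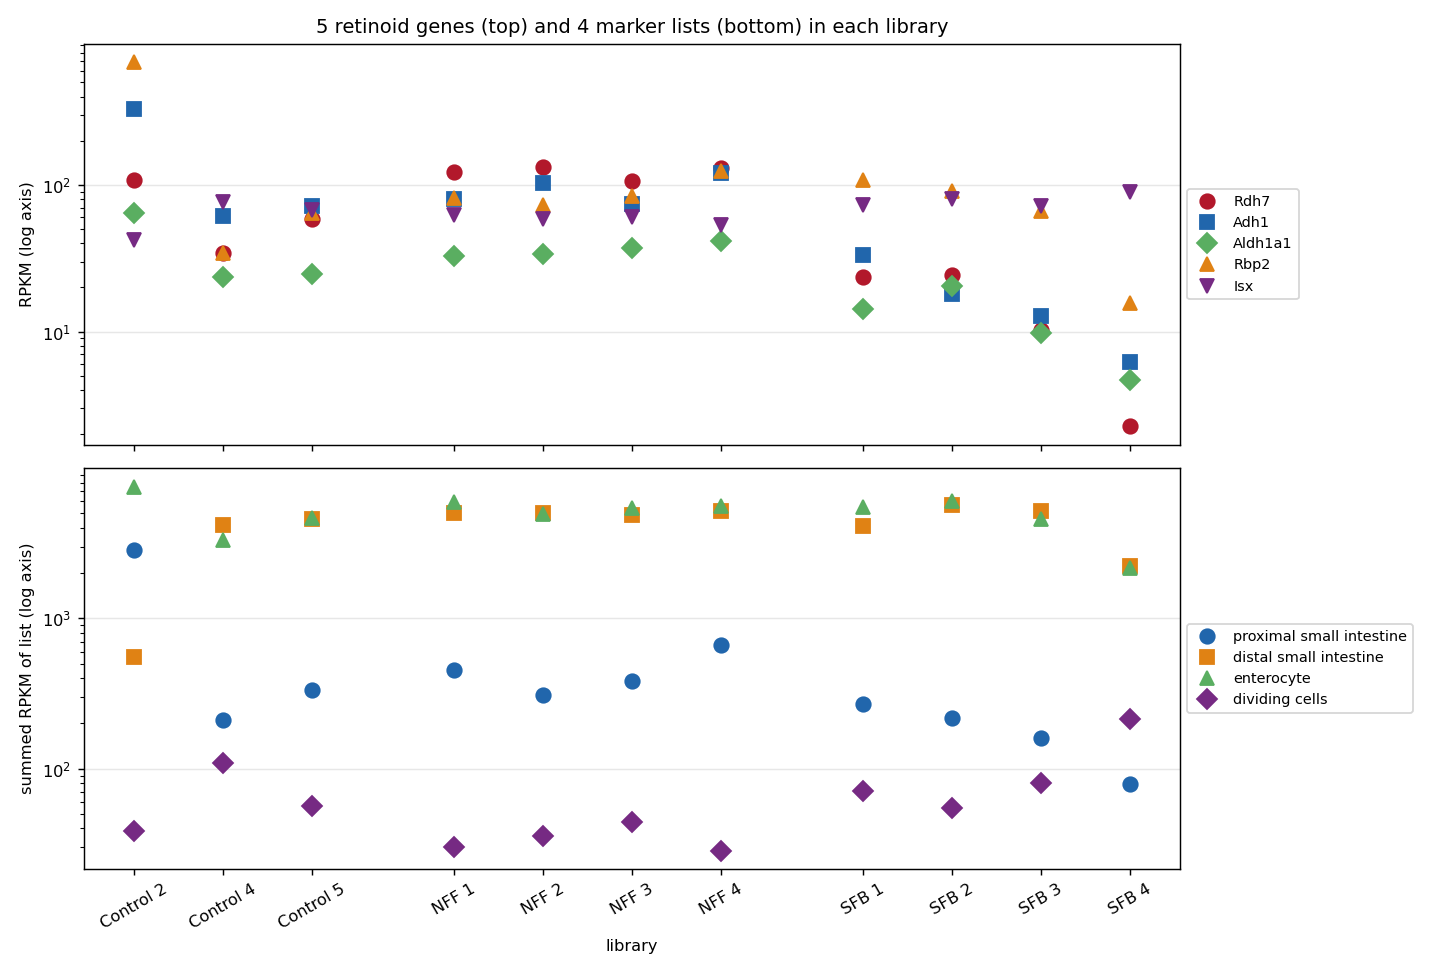
Level of 5 retinoid genes (RPKM, log axis, top) and summed level of 4 marker lists (summed RPKM, log axis, bottom) in each of the 11 libraries. Control 2 is highest for Rbp2, Adh1, Aldh1a1 and the proximal list and lowest for Isx and the distal list, and SFB 4 is lowest for Rdh7, Rbp2, Adh1 and Aldh1a1 and highest for Isx and dividing cells.

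The genes that bind and esterify retinol did not pass the test. Rbp2, on chromosome 9 (98486115 to 98509781), encodes the retinol-binding protein of the enterocyte cytosol. Its RPKM was 688, 34.2 and 64.0 in Control 2, 4 and 5, then 81.9, 72.6, 84.6 and 123 in NFF 1 to 4, and 109, 90.7, 65.9 and 15.8 in SFB 1 to 4. Control 2 was more than all the other libraries and SFB 4 less, and the remaining libraries of the 3 groups overlapped. The SFB to NFF difference was -0.63 (95% interval -2.40 to 1.13), or -0.03 without SFB 4. The differences from Control were -1.01 for SFB and -0.37 for NFF, and both turned without Control 2, to 0.28 and 0.91, so their direction rested on that library.

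Lrat, the main retinol acyltransferase, is on chromosome 3 (82892579 to 82903973) and was low in all libraries. Its RPKM was 4.01, 2.95 and 5.87 in Control 2, 4 and 5, then 3.61, 3.13, 3.40 and 2.74 in NFF 1 to 4, and 3.39, 2.01, 2.19 and 2.55 in SFB 1 to 4. The groups overlapped. SFB differed from Control by -0.55 (95% interval -0.97 to -0.14; limma adjusted p = 0.271) and from NFF by -0.27 (-0.65 to 0.12), and NFF from Control by -0.29 (-0.70 to 0.13).

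Dgat1 makes triglycerides and can also esterify retinol. It is on chromosome 15 (76502015 to 76511953) and varied least of the 10 genes, 1.70-fold from the lowest to the highest library, against 66.1-fold for Rdh16f2, 58.3-fold for Rdh7 and 53.2-fold for Adh1. Its RPKM was 148, 125 and 127 in Control 2, 4 and 5, then 153, 146, 149 and 142 in NFF 1 to 4, and 139, 142, 111 and 89.9 in SFB 1 to 4. SFB lay just under NFF, since the highest SFB library, at 142.0, was below the lowest NFF library, at 142.3. The differences were -0.32 for SFB against NFF (95% interval -0.65 to 0.02), or -0.18 without SFB 4, then -0.17 for SFB against Control (-0.53 to 0.20) and 0.15 for NFF against Control (-0.21 to 0.51), none called.

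The order of the 10 genes by RPKM, a level per length of gene, differed between the groups. In NFF it ran from Dgat1 (148) and Rdh7 (123) through Adh1 (94.7), Rbp2 (90.7), Isx (58.7) and Aldh1a1 (36.3) to Dhrs3 (7.43), Rdh16f2 (5.12), Bco1 (3.36) and Lrat (3.22). Neighbours whose libraries overlapped in NFF were Rdh7 with Adh1, Adh1 with Rbp2, Rdh16f2 with Bco1 and Bco1 with Lrat. In Control, Rbp2 (262) and Adh1 (154) stood above Dgat1 (133), both carried by Control 2. In SFB, Isx (78.5) and Rbp2 (70.3) followed Dgat1 (120), and Rdh7 (15.1) stood with Adh1 (17.6) and Aldh1a1 (12.3), whose libraries overlapped. Rdh16f2 (0.394) was last in SFB, under Bco1 (1.70) with no overlap.

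Of 62 further genes of the pathway 34 were measured and tested. In SFB against NFF 1 was higher and 1 lower of the 34, a share near the 7.34% called over all genes, with a median log2 difference of -0.26, and in SFB against Control and NFF against Control 0 of 34 were called, with medians of -0.19 and -0.08. The gene that rose was Akr1b8, an aldo-keto reductase that can reduce aldehydes such as retinal, from 2.83 ± 0.338 RPKM in NFF to 6.02 ± 1.57 in SFB (SD, n = 4 each), by 0.85 ± 0.16 on the log2 scale (SE; limma adjusted p = 0.011). It stood at 5.56 ± 0.907 in Control (SD, n = 3), and its difference of NFF from Control was -0.77 (limma adjusted p = 0.526). The gene that fell was Aldh1a7, described above.

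The remaining pathway genes with the lowest unadjusted p were not called. In SFB against Control they were the carboxylesterase genes Ces1f (-1.18, limma adjusted p = 0.082) and Ces1e (-1.14, limma adjusted p = 0.102), members of a multigene family whose reads can be shared. Ces1f also differed by -0.83 in SFB against NFF (limma adjusted p = 0.054) and Ces1e by -0.69 (limma adjusted p = 0.108). Ces1f averaged 16.0 ± 1.94 RPKM in SFB and 29.8 ± 8.03 in NFF (SD, n = 4 each). Rbp7, a cellular retinol-binding protein, averaged 19.8 ± 8.34 RPKM in SFB, 10.6 ± 1.47 in NFF (SD, n = 4 each) and 24.7 ± 7.04 in Control (SD, n = 3), with differences of -1.12 for NFF against Control (limma adjusted p = 0.566) and 0.77 for SFB against NFF (limma adjusted p = 0.082). Plb1, a brush border phospholipase with retinyl ester hydrolase activity, differed by 1.98 in NFF against Control (95% interval -0.05 to 4.01), where Control 2 was at 2.08 RPKM, Control 4 at 43.3 and Control 5 at 80.9.

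None of the 3 measured receptor genes of retinoic acid (Rara, Rxra and Rxrb) was called in any comparison. Rara averaged 5.56 ± 0.359 RPKM in SFB, 6.87 ± 0.682 in NFF (SD, n = 4 each) and 6.30 ± 0.759 in Control (SD, n = 3). Rxra averaged 9.78 ± 1.16 in SFB, 12.01 ± 1.64 in NFF and 10.2 ± 1.17 in Control. In SFB against NFF the log2 differences were -0.26 for Rara (95% interval -0.50 to -0.03; limma adjusted p = 0.156) and -0.27 for Rxra (-0.55 to 0.01). The other 3 receptor genes listed and the Cyp26 genes, which break down retinoic acid, were not analysed here.

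Genes whose profile was most like 2 of the members over the 11 libraries are given as a description, since ranking all tested genes finds high values in any case. For Rdh7 they were Cyp2d26, Ifi27, Trim38, Nr1d1 and Iyd, with Pearson r of 0.99, 0.98, 0.98, 0.98 and 0.97 on the log2 scale. For Isx they were Agpat4, Chic1, Gm3336, Smarcb1 and Morc3, with r of 0.98, 0.97, 0.97, 0.96 and 0.96. The points share the libraries that stand apart, Control 2 and SFB 4.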

How the data were processed

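Expression was measured by RNA-seq (SMART-seq v4 cDNA and Nextera XT libraries, per the labels' protocols) in 11 libraries of 3 groups. The authors deposited RPKM values (reads scaled by gene length and library total) for 11366 genes, per the file headers. STAR and the build mm10 are named in the submitters' processing notes. How reads were counted, and with which gene lengths and totals, is not given in the sources used here. Therefore the depth of each library is unknown and no counting interval was computed. Sums of RPKM were 237248 to 302661 per library. The kits mark no strand and carry no molecular identifiers.

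Values were analysed as log2(RPKM + 1) in R 4.3.3 with limma 3.58.1. The test took the 10482 genes that reached an RPKM of 1 in 3 or more libraries and left out 884. A single fit held all 11 libraries with a mean for each group (8 residual degrees of freedom) and moderated variances by eBayes with a trend. Genes with a Benjamini-Hochberg adjusted p under 0.05 were called, and each fold change is on that log2 scale unless given as a ratio of mean RPKM. The script was tested on simulated data. Coordinates came from GENCODE M21 (GRCm38) and promoters from RefSeq (GRCm38.p6). The members, lists and alternatives were chosen with earlier results of these data known. The text names all 10 members and, of the other pathway genes, Rara, Rxra, those called and the 3 of lowest p in each comparison. Neighbouring paralogs (Rdh9, Rdh16, Adh4, Adh5, Adh6a), Bco2 and single marker genes were added after their values were seen. Alternatives were 2 other pseudocounts (0.1 and 4), no filter, a mean of at least 3 RPKM, 2 other scalings, eBayes without a trend or robust, array weights, only the groups compared, a replicate block, and leaving out libraries.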

Additional observations from a re-analysis of the deposited data

How the results depend on the processing

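For SFB against NFF, the 5 called members were 7 with array weights and 2 (without NFF 2; 3 without NFF 4) to 6 (without Control 2) when each library was left out in turn. Rdh7 stayed called in all 23 alternatives and Rdh16f2 in all 22 that tested it (it misses a mean of 3 RPKM, as Bco1 does). The call of Dhrs3 was made in 22 of 23, that of Adh1 in 21 and that of Aldh1a1 in 18. All 769 genes called there became 4720 with array weights, 1173 with quantile normalization, 335 with a replicate block, and 240 (without NFF 2) to 994 (without Control 2) with single libraries left out, with 303 without NFF 4, 423 without NFF 3 and 503 without SFB 3. For SFB against Control, the 0 called members became 5 with array weights, 1 (Aldh1a1) without Control 2, SFB 2 and SFB 4 together, and 0 to 1 with single libraries left out. The 21 genes called there became 1948 with array weights, 13 with a mean of at least 3 RPKM, 1 with only the 2 groups fitted, 0 with a replicate block, 95 without Control 2, SFB 2 and SFB 4 together, and 7 (without SFB 2) to 94 (without SFB 4) with single libraries left out, with 8 without SFB 3, 10 without Control 5, 11 without NFF 2, 12 without Control 2, 39 without Control 4 and 56 without SFB 1. For NFF against Control, 0 members were called in any alternative, and the 0 genes called became 40 with array weights, 1 with only the 2 groups fitted, 22 without Control 2, SFB 2 and SFB 4 together, and 0 to 8 (without SFB 4) with single libraries left out. The weights did not reach their convergence limit, and the cause of these changes was not tested.

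Of 684 values of members under alternatives, 643 kept direction and side of the threshold, 8 lost a call, 12 gained one and 21 changed sign, none of the last called. In NFF against Control the sign turned for Isx with quantile normalization (0.0032) or a replicate block (0.067), for Adh1 (0.087) and Rbp2 (0.19) with array weights, for Aldh1a1 with a replicate block (-0.13), and for Adh1 (0.47) and Rbp2 (0.91) without Control 2, SFB 2 and SFB 4 together. With single libraries left out, values there ran from -0.72 to 0.47 for Adh1, from -1.24 to 0.91 for Rbp2, from -0.13 to 0.58 for Aldh1a1 and from -0.29 to 0.14 for Isx. In SFB against Control it turned for Rbp2 (0.54) and Dgat1 (0.10) with array weights and for Rbp2 (0.84) and Bco1 (0.31) without the 3 libraries together. With single libraries left out, values ran from -1.87 to 0.28 for Rbp2 and from -0.39 to 0.12 for Bco1. In SFB against NFF it turned for Rbp2 with array weights (0.35). Most same-numbered libraries did not deviate together (2 of 8 pairs correlated above 0.1, r from -0.30 to 0.67, median -0.17). The 32 other pairs had r from -0.50 to 0.40, so Control 4 with SFB 4, at 0.67, lay above them all. The number was not taken as a pairing, which so few libraries cannot exclude. With the depth unknown, the precision of values near or under 1 RPKM, such as Rdh16f2 in SFB, cannot be given.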
